A study of Mus musculus with 86 samples.

Results

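The ligands and receptors of the 4 classical axon guidance systems were examined in the brains of wild house mice. Members were taken by gene symbol: semaphorins of classes 3 to 7, plexins, Eph receptors, ephrins, Slits, Robos, netrins and Unc5 receptors. Of 35275 genes in the count table, 21397 were protein-coding in the annotation used and 65 of these were members, 34 ligands and 31 receptors. They comprised 20 semaphorins, 9 plexins, 9 EphA and 5 EphB receptors, 5 ephrin-As, 3 ephrin-Bs, 3 Slits, 4 Robos, 3 netrins and 4 Unc5 receptors. Ntn3 was not analysed here.

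The animals were 29 free-living house mice (Mus musculus domesticus) without any genetic or drug treatment, taken from both ends of the range of social network size in a barn population in the non-breeding season. RNA from tissue punches of the prefrontal cortex (29 libraries), hippocampus (29) and hypothalamus (28) was sequenced. Each region held 7 females with large, 7 females with small and 7 males with large social network size, and 8 males with small network size in the prefrontal cortex and hippocampus but 7 in the hypothalamus. Each library came from 1 animal and 1 region, and the same animals gave all regions. According to the paper, large network sizes were less extreme in the sampled males than in the females. Network size was observed and not assigned, and ages are not used here, so other differences between the animals cannot be told apart from it.

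These systems work as pairs of cue and receptor. Semaphorins act on plexins, the secreted class 3 members mostly with a neuropilin as coreceptor. Ephrins, which stay on the cell surface, signal to the Eph receptor tyrosine kinases of neighbouring cells and back into their own cell. Slits bind members of the Robo family, and netrins bind Dcc and the Unc5 receptors. They steer growing axons in the embryo and are known in the adult brain for roles in synapses, spines and vessels.

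Total counts per library lay between 33711824 and 81865801. Levels are given in CPM, counts scaled to library size with TMM factors, which adjust for differences in composition. Summed markers separated the regions: those of the hypothalamus reached 140 to 1472 CPM in hypothalamus libraries, 4.25 to 84.8 in the hippocampus and 2.67 to 7.39 in the prefrontal cortex, and those of excitatory neurons of the telencephalon 1858 to 2678 CPM in the prefrontal cortex, 1242 to 1817 in the hippocampus and 25.1 to 362 in the hypothalamus. The 6 genes listed as hippocampal markers did not separate the hippocampus (236 to 322 CPM) from the hypothalamus (198 to 390 CPM). Genes listed as markers of neighbouring tissue were also counted. Choroid plexus markers lay at 286 to 1517 CPM in the hippocampus libraries against 3.51 to 445 in the prefrontal cortex. Thalamic markers reached 840 CPM in the hypothalamus of animal 6 against 343 at most in the other hypothalamus libraries. Summed thalamic markers had medians of 31.6, 237 and 125 CPM in the prefrontal cortex, hippocampus and hypothalamus, and striatal markers of 246, 180 and 658 CPM, and their part in the regional differences was not tested. Of the 10 hypothalamic markers, Nkx2-4 had a median of 0 CPM in the prefrontal cortex and hippocampus and of 1.90 in the hypothalamus. The hypothalamus of animal 10, with the lowest hypothalamic markers, was the highest of its region for 21 of the 65 members. Regional counts were also taken without 6 libraries that stood apart on such markers: the hypothalamus of animals 6, 7 and 10, the hippocampus of animal 7 and the prefrontal cortex of animals 10 and 20. Other libraries with high marker sums were kept. Among these were the hypothalamus of animal 28 (choroid plexus markers 328 CPM, median of the region 51.9) and the prefrontal cortex of animal 8 (prefrontal cortex markers 1658 CPM, median 1194). In bulk tissue, fewer cells of a type and less RNA per cell cannot be told apart.

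Guidance genes were widely expressed in these adult brains. The mean level reached 10 CPM for 53 of the 65 members in the prefrontal cortex, 54 in the hippocampus and 53 in the hypothalamus. Means below 1 CPM were found for Efna4 in every region, for Epha1 in the prefrontal cortex and for Ntn5 in the hypothalamus. The median coefficient of variation among animals was 14.5% in the prefrontal cortex, 12.1% in the hippocampus and 13.5% in the hypothalamus. That of Efnb3 was 14.7%, 6.67% and 6.55% in the same regions, and that of Ntn5 35.6%, 15.7% and 44.5%.

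Levels of different genes were compared per kb of annotated exon, as a description. In the prefrontal cortex, Sema7a, a semaphorin held to the membrane by a lipid anchor, had the highest level with 80.2 ± 11 CPM per kb (SD, n = 29). It was followed by Ephb6, an Eph receptor whose kinase domain is inactive, with 64.3 ± 7.0 CPM per kb (SD, n = 29), and by the transmembrane Sema6b with 52.6 ± 6.63 CPM per kb (SD, n = 29). In the hippocampus Efnb3, Sema7a and Sema6b stood at 53.0 ± 3.54, 51.4 ± 5.41 and 47.4 ± 3.43 CPM per kb (SD, n = 29). Efnb3 and Sema7a differed by less than their spread. In the hypothalamus, Efnb3, a transmembrane ephrin, stood at 68.9 ± 4.51 CPM per kb (SD, n = 28), well above Sema6b with 36.9 ± 3.45 and Slit1 with 21.3 ± 3.27 CPM per kb.

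The leading member of most families was the same everywhere. Epha4 led the EphA receptors with 32.2, 31.5 and 12.6 CPM per kb in the prefrontal cortex, hippocampus and hypothalamus, and Ephb6 the EphB receptors with 64.3, 28.7 and 16.5. Efna3 led the ephrin-As with 22.8, 21.2 and 12.4 CPM per kb, Slit1 the Slits with 11.8, 25.3 and 21.3, and Unc5a the Unc5 receptors with 33.5, 34.7 and 19.3. Among the plexins the highest means were those of Plxnd1 in the prefrontal cortex (14.5 ± 2.2 CPM per kb), Plxna1 in the hippocampus (12.8 ± 1.2) and Plxnb1 in the hypothalamus (15.3 ± 1.8). Plxnb1 (12.5 ± 1.1) was within the spread of Plxna1 in the hippocampus, as was Plxnb2 (13.7 ± 1.1) of Plxnb1 in the hypothalamus, and by the length of the longest transcript Plxna2 and Plxnb1 had the highest means in the prefrontal cortex and hippocampus. Among the Robos, Robo2 led in the hippocampus (7.05 CPM per kb) and Robo1 in the hypothalamus (4.13), while in the prefrontal cortex Robo2 (8.87 ± 0.76) and Robo3 (8.52 ± 2.28) were within their spread. No netrin led beyond the spread: Ntn5 and Ntn4 had 4.71 ± 1.68 and 3.81 ± 0.59 CPM per kb in the prefrontal cortex and 3.40 ± 0.53 and 3.58 ± 0.80 in the hippocampus, where the order turned with the longest transcript, and Ntn4 and Ntn1 had 6.09 ± 0.93 and 5.47 ± 0.81 in the hypothalamus.

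**Figure D1:**
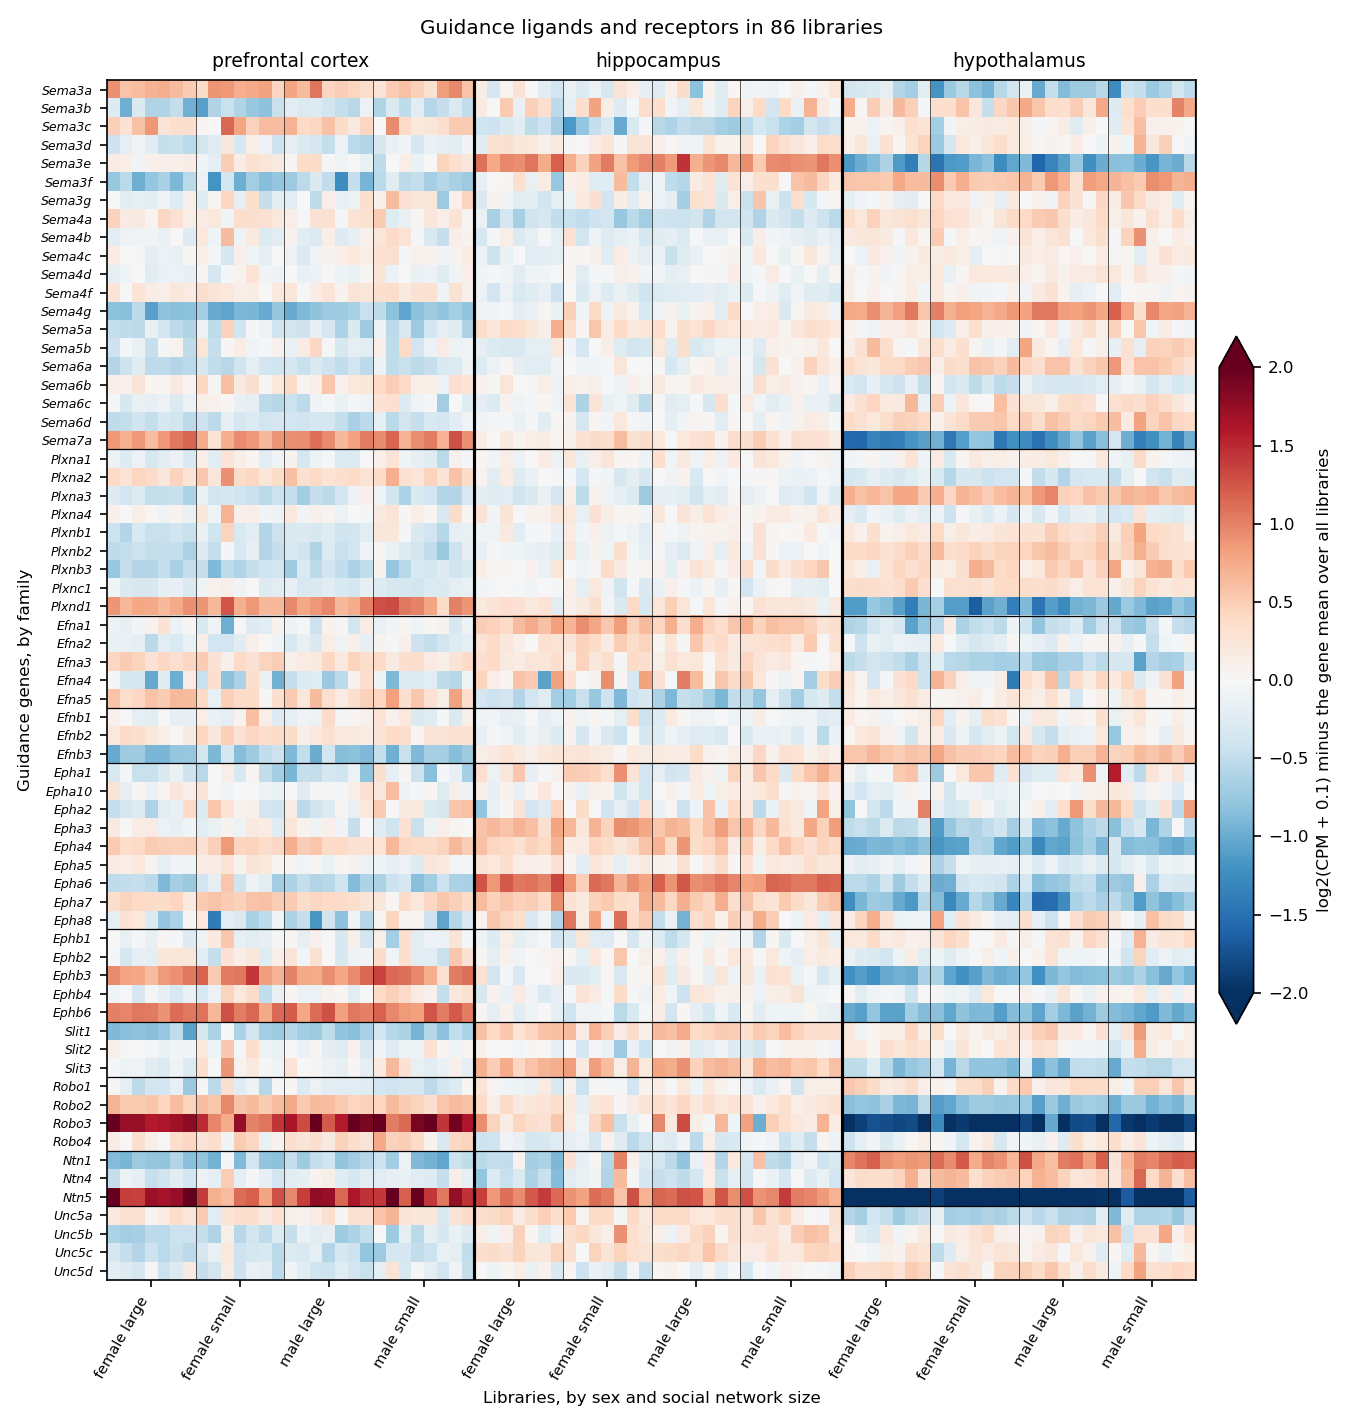
Each row is 1 of the 65 guidance genes, ordered by family, and each column 1 of the 86 libraries, ordered by region, sex and social network size; colour gives log2(CPM + 0.1) minus the mean of that gene over all libraries, cut at -2 and 2. Ntn5, Robo3, Sema7a, Plxnd1 and Ephb3 are blue across the 28 hypothalamus libraries, while Epha6 and Sema3e are red in the hippocampus, and no column block by network size stands out in the same way.

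To see how these systems differ between brain regions, regions were compared within animals. A member was called when the edgeR quasi-likelihood test gave an adjusted p under 0.05 and the difference was at least 2-fold. Of the members, 5 were called higher and 11 lower in the hypothalamus than in the prefrontal cortex, that is 7.69% and 16.9% of members, where 8.56% and 7.01% of all 18769 genes tested were called. Against the hippocampus, 1 was higher and 12 were lower in the hypothalamus (1.54% and 18.5%), where 4.72% and 5% of all genes were called. Between hippocampus and prefrontal cortex the members called were 2 higher and 2 lower in the hippocampus (3.08% each), where 4.61% and 1.78% of all genes were called. All 65 members were tested in each of these comparisons.

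With no limit on fold change, the adjusted p was under 0.05 for 51 members between hippocampus and prefrontal cortex, 60 between hypothalamus and prefrontal cortex and 57 between hypothalamus and hippocampus. Of all genes, 72%, 81.3% and 76.4% passed in the same comparisons, so at this number of animals small regional differences were common in the transcriptome. The median size of the log2 difference was 0.54 for the members and 0.31 for all genes between hypothalamus and prefrontal cortex, 0.36 and 0.24 between hypothalamus and hippocampus, and 0.41 and 0.19 between hippocampus and prefrontal cortex. Receptors, 31 of the 65 members, made up 7 of the 11 members called lower and 1 of the 5 called higher in the hypothalamus than in the prefrontal cortex. Against the hippocampus, 7 receptors and 5 ligands were called lower in the hypothalamus, and 0 receptors and 1 ligand higher. Whether receptors differ from ligands in this was not tested.

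A member was taken as low in a region when it was called lower there than in both others. This held in the hypothalamus for 8 members (12.3%): Epha4, Epha7, Ntn5, Plxnd1, Robo2, Robo3, Sema3e and Sema7a. Among all genes 3.51% did so. It held for 0 members in the prefrontal cortex and 0 in the hippocampus, where 3.35% and 0.186% of all genes did so. By the reverse rule, Ephb6 and Robo3 were high in the prefrontal cortex, Epha6 in the hippocampus and Ntn1 in the hypothalamus, where 1.41%, 0.948% and 4.18% of all genes were. These counts did not change without the 6 libraries named above.

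**Figure D2:**
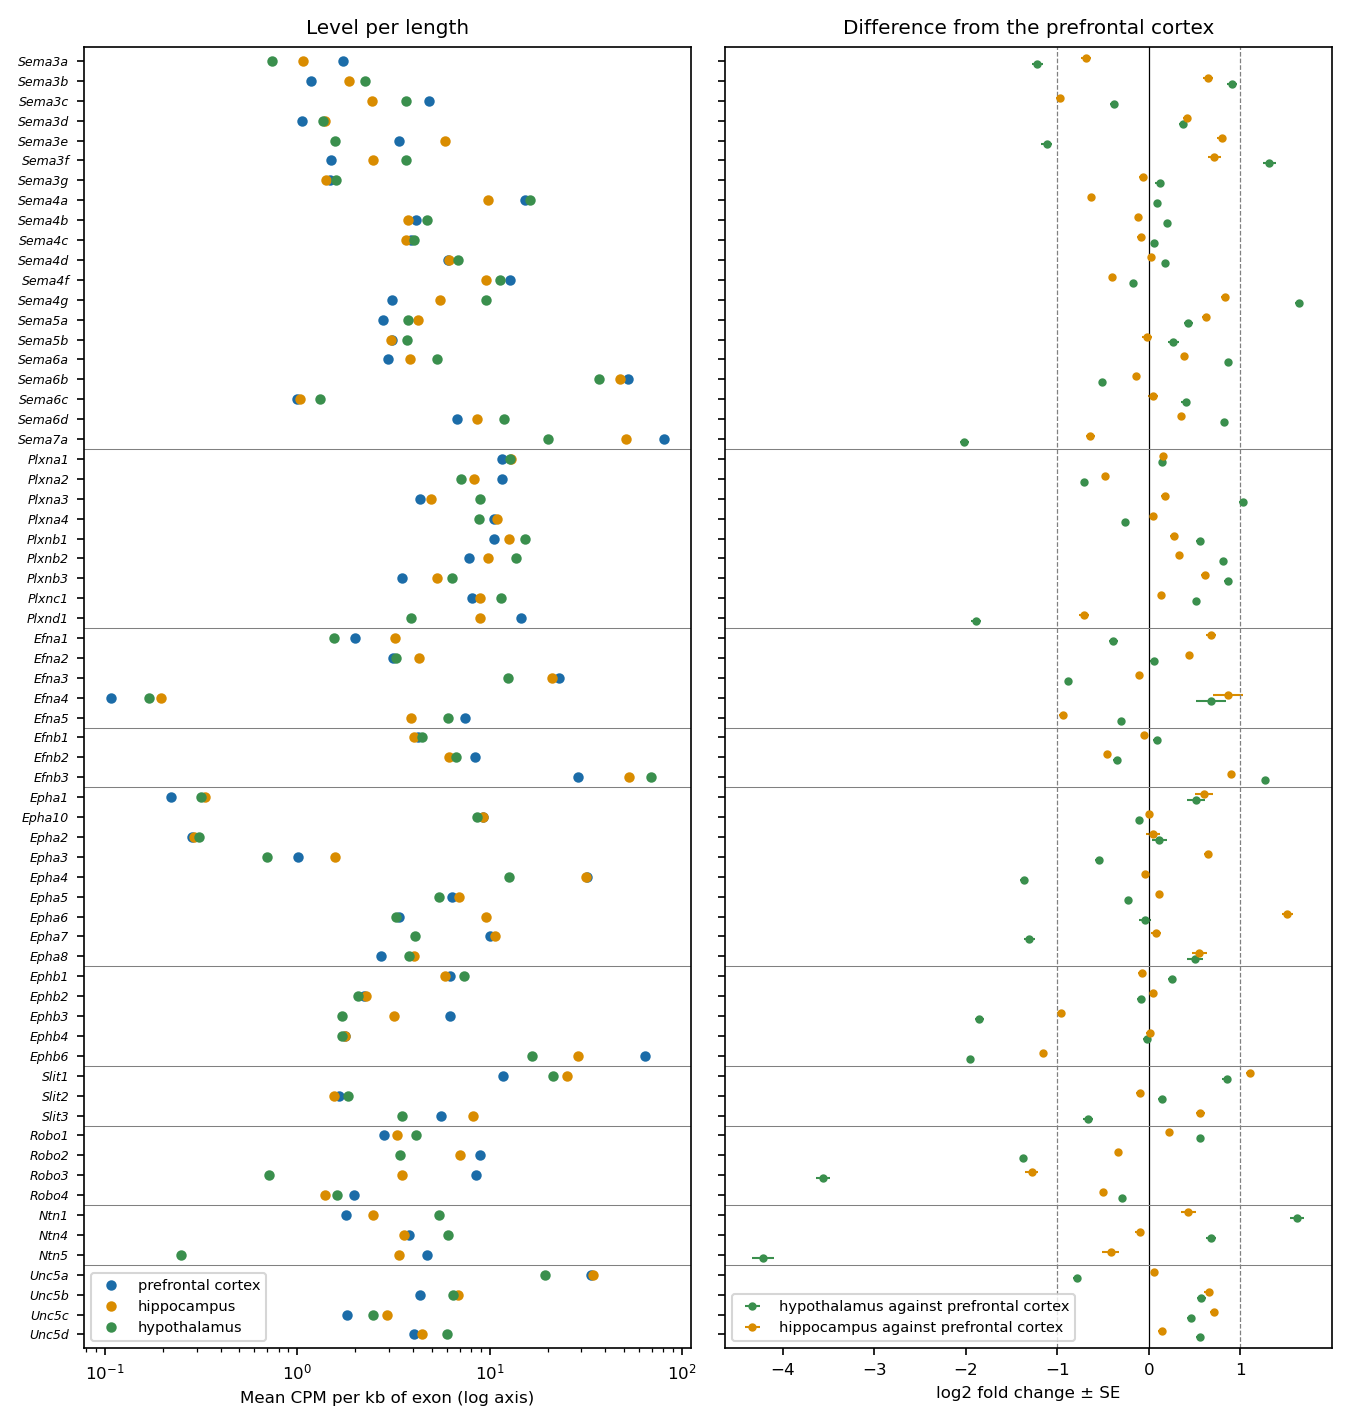
Left, the mean level of each guidance gene in CPM per kb of exon on a log axis, 1 point per region; right, log2 fold changes of the hippocampus and hypothalamus against the prefrontal cortex with bars of 1 standard error, both sets sharing the prefrontal cortex libraries. Dashed lines mark 2-fold differences. Ntn5 and Robo3 lie farthest to the left, at -4.21 and -3.56 for the hypothalamus.

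Among the ligands that were low in the hypothalamus, Ntn5, a secreted netrin, differed most. Its level was between 5.52 and 24.1 CPM in the prefrontal cortex (median 9.60), between 5.31 and 9.56 in the hippocampus (median 7.36) and between 0.177 and 1.07 in the hypothalamus (median 0.572). No hypothalamus library reached the lowest library of the other regions. The log2 fold change was -4.21 ± 0.12 (SE) against the prefrontal cortex (adjusted p = 5.42e-41) and -3.80 ± 0.12 against the hippocampus (adjusted p = 7.16e-38). Ntn5 shares 519 exon bases with Sec1 on the opposite strand, and whether the counting used strand is not given in the sources used here. Sec1 was also lowest in the hypothalamus, with group medians of 0.338 to 0.491 CPM there, near those of Ntn5 (0.534 to 0.630), and of 1.77 to 2.56 CPM in the prefrontal cortex.

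Sema7a fell in the same order of regions. It ranged from 173 to 350 CPM in the prefrontal cortex (median 264), from 142 to 220 in the hippocampus (median 175) and from 48.1 to 112 in the hypothalamus (median 62.4). The hypothalamus did not overlap with either region, and prefrontal cortex and hippocampus overlapped. The hypothalamus was 4.05-fold lower than the prefrontal cortex (log2 fold change -2.02 ± 0.05 SE, adjusted p = 3.78e-44) and 2.60-fold lower than the hippocampus. Its receptor Plxnc1 went the other way, with 67.6 ± 6.3 CPM in the prefrontal cortex, 74.3 ± 7.0 in the hippocampus and 96.1 ± 6.8 in the hypothalamus (SD, n = 29, 29 and 28), a log2 fold change of 0.51 between hypothalamus and prefrontal cortex (adjusted p = 8.09e-23) that was below 2-fold.

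Sema3e and its receptor Plxnd1 were both low in the hypothalamus but had different regions of highest level. Sema3e, a secreted semaphorin that can act without a neuropilin, ranged from 20.5 to 41.2 CPM in the prefrontal cortex, from 40.1 to 79.4 in the hippocampus and from 9.67 to 19.8 in the hypothalamus. Plxnd1 ranged from 74.7 to 144 CPM in the prefrontal cortex, from 47.0 to 80.7 in the hippocampus and from 18.4 to 36.7 in the hypothalamus. For both, every hypothalamus library was below every other library. From prefrontal cortex to hippocampus Sema3e rose by 0.79 and Plxnd1 fell by 0.71 on the log2 scale, with Sema3e higher in the hippocampus of 29 of 29 animals and Plxnd1 lower in 29 of 29.

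The Robos, a family that includes the receptors of the Slits, split. Robo3, known for its role in axons that cross the midline, ranged from 31.4 to 95.4 CPM in the prefrontal cortex (median 57.5), from 9.48 to 46.2 in the hippocampus (median 23) and from 3.23 to 9.21 in the hypothalamus (median 4.87). It was 11.8-fold lower in the hypothalamus than in the prefrontal cortex (log2 fold change -3.56 ± 0.08 SE, adjusted p = 1.54e-46) and 4.84-fold lower than in the hippocampus. Robo2 ranged from 129 to 198 CPM in the prefrontal cortex, from 90.8 to 136 in the hippocampus and from 47.2 to 71.2 in the hypothalamus, with no overlap of the hypothalamus with either region. Robo1 was higher in the hypothalamus than in the prefrontal cortex in 28 of 28 animals, though by less than 2-fold (log2 fold change 0.55), with 46.9 ± 7.5, 54.7 ± 6.9 and 68.2 ± 8.0 CPM from prefrontal cortex to hypothalamus (SD, n = 29, 29 and 28). Robo4, best known from vessels, lay between 7.40 and 10.5 CPM in all region means.

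Animal 22, a male with large network size, had the highest Robo3 level in each region, 95.4, 46.2 and 9.21 CPM. The lowest were those of animals 8, 7 and 21.

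A pair of Eph receptors known from synapses and topographic maps, Epha4 and Epha7, were low in the hypothalamus. Epha4 ranged from 228 to 339 CPM in the prefrontal cortex, from 205 to 346 in the hippocampus and from 76.7 to 150 in the hypothalamus. Epha7 ranged from 76.9 to 113, from 85.5 to 142 and from 25.3 to 52.0 CPM in the same order. Against the hippocampus, the log2 fold changes of the hypothalamus were -1.33 ± 0.04 for Epha4 and -1.39 ± 0.06 for Epha7 (SE), with adjusted p of 1.3e-36 and 9.29e-32. The log2 difference between hippocampus and prefrontal cortex was -0.04 for Epha4 and 0.08 for Epha7, and neither passed the test.

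The promoters of 4 members that were low in the hypothalamus are shown beside that of Plxna3, which was called higher there than in the prefrontal cortex. These are examples: of the 8 low members, 6 have a window outside annotated exons, and those of Sema3e and Robo2 are not printed. Each is the stretch of 250 bases before the start given by RefSeq (GRCm38.p6), 5′ to 3′ on the strand of the gene. Capitals mark E-boxes, searched on both strands: the letters CAGATG and their reverse complement CATCTG, and the palindrome CAGCTG, all of which share their outer letters. They lie at chr7:45683772-45684021 on the plus strand for Ntn5, chr9:57939862-57940111 on the plus strand for Sema7a, chr6:115995006-115995255 on the minus strand for Plxnd1, chr4:28812881-28813130 on the plus strand for Epha7 and chrX:74328816-74329065 on the plus strand for Plxna3.
Ntn5: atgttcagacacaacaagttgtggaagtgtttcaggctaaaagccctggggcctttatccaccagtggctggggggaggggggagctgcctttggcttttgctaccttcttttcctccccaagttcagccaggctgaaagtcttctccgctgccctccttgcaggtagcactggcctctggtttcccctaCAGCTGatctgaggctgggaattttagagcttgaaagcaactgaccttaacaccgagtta
Sema7a: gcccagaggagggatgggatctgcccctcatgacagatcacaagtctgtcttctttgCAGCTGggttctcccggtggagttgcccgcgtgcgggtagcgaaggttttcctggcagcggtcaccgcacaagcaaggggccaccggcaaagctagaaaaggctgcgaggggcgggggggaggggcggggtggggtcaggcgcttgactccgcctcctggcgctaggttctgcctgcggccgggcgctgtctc
Plxnd1: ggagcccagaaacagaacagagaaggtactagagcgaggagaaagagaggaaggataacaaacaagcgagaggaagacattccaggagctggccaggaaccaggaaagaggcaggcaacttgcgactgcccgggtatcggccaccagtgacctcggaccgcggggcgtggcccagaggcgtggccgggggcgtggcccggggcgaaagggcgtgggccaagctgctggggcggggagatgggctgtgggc
Epha7: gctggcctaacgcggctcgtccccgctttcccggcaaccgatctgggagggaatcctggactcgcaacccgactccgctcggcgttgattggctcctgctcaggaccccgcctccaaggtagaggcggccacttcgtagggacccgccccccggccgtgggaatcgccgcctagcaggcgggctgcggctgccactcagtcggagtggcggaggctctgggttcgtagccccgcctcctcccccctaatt
Plxna3: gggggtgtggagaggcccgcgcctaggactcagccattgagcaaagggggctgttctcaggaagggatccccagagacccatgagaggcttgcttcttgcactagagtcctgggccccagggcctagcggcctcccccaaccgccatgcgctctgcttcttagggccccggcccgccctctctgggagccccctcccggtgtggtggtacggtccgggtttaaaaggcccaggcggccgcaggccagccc
Counting only the E-box letters named above, the windows of Ntn5 and Sema7a held 1 match each, and 0 were found in those of Plxnd1, Epha7 and Plxna3. Windows with such letters made up 25.5% of 32851 promoters in the table and 22.2% of the 72 that belong to the 56 members matched. The number of CG pairs was 2 for Ntn5, 17 for Sema7a, 16 for Plxnd1, 25 for Epha7 and 12 for Plxna3, with a median of 6 over all promoters and 15.5 over those of members.

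Other members were called lower in the hypothalamus against the prefrontal cortex alone. Ephb6 fell in steps, from 188 to 285 CPM in the prefrontal cortex to 81.0 to 131 in the hippocampus and 54.0 to 73.3 in the hypothalamus, without overlap between any regions. The log2 fold change was -1.16 ± 0.03 (SE) for the hippocampus and -1.96 ± 0.03 for the hypothalamus against the prefrontal cortex, with adjusted p of 3.25e-40 and 1.34e-52. Ephb3, a receptor of ephrin-Bs, fell alike, from 41.2 ± 6.7 CPM to 21.1 ± 3.2 and 11.4 ± 1.4 (SD, n = 29, 29 and 28). Sema3a, the secreted semaphorin that repels many growing axons, had ranges of 18.4 to 32.2, 8.56 to 19.7 and 6.35 to 13.9 CPM in the same order. Among the remaining EphB receptors, Ephb1, Ephb2 and Ephb4, the largest log2 fold change was 0.33, that of Ephb1 between hypothalamus and hippocampus.

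Lower in the hypothalamus than in the hippocampus, but not by 2-fold against the prefrontal cortex, were Epha6, Epha3, Slit3 and Efna1. Epha6 set the hippocampus apart: it ranged from 34.3 to 62.3 CPM there, from 13.3 to 36.3 in the prefrontal cortex and from 12.4 to 26.4 in the hypothalamus. The hippocampus was 2.86-fold above the prefrontal cortex (log2 fold change 1.51 ± 0.06 SE, adjusted p = 6.75e-32) and 2.94-fold above the hypothalamus. Its only overlap with the prefrontal cortex came from animal 8, whose prefrontal cortex held the 36.3 CPM. Epha3, another EphA receptor, had 8.78 ± 1.2, 13.7 ± 1.8 and 6.03 ± 1.1 CPM from prefrontal cortex to hypothalamus, Slit3 33.9 ± 7.3, 49.7 ± 6.6 and 21.3 ± 3.4 and Efna1, an ephrin of the membrane surface, 3.67 ± 0.53, 5.88 ± 0.72 and 2.83 ± 0.52 (SD, n = 29, 29 and 28).

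Slit1, a secreted repellent, was called higher in the hippocampus than in the prefrontal cortex. It ranged from 51.9 to 108 CPM in the prefrontal cortex, from 117 to 182 in the hippocampus and from 95.3 to 195 in the hypothalamus. The hippocampus did not overlap with the prefrontal cortex and was 2.15-fold higher (log2 fold change 1.11 ± 0.05 SE, adjusted p = 5.01e-31). The hypothalamus was above the prefrontal cortex by less than 2-fold (log2 fold change 0.85). Slit2 had log2 differences of -0.10, 0.14 and 0.24 in the comparisons of hippocampus with prefrontal cortex, hypothalamus with prefrontal cortex and hypothalamus with hippocampus.

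**Figure D3:**
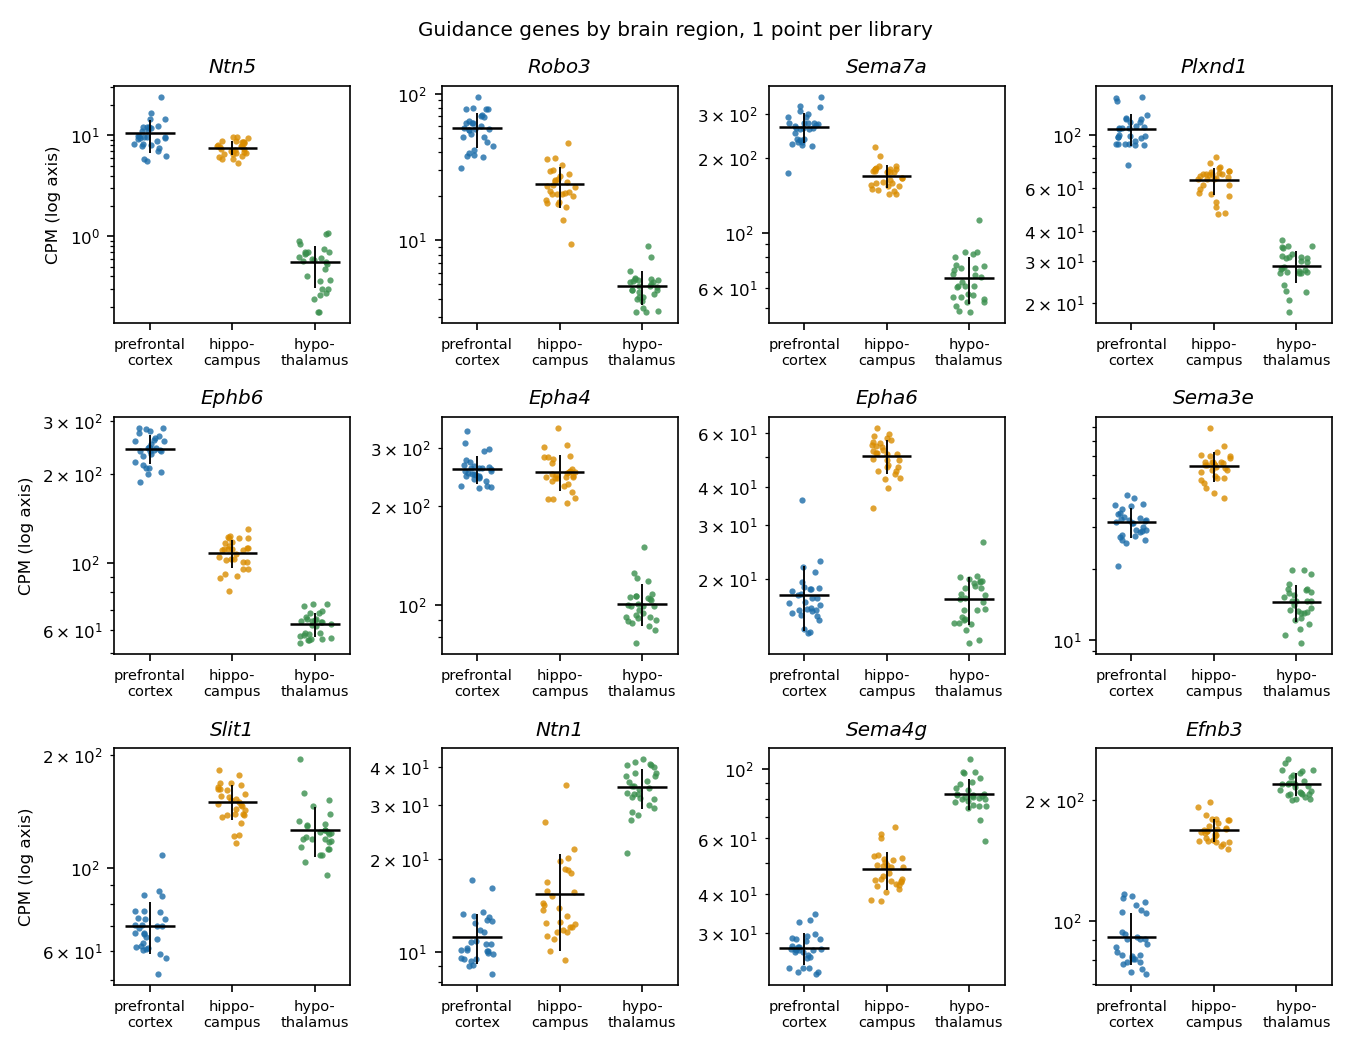
Levels of 12 guidance genes in CPM on log axes by region, 1 point per library (29, 29 and 28), with the mean as a horizontal and the SD as a vertical line. The 28 hypothalamus points lie below all others for Ntn5, Sema7a, Plxnd1, Epha4 and Sema3e and above all others for Efnb3, while Epha6 is highest in the hippocampus.

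Of the 5 members called higher in the hypothalamus than in the prefrontal cortex, 4 were ligands, and of these 5 only Ntn1 was also called against the hippocampus. Ntn1, the netrin that attracts or repels axons depending on the receptor, ranged from 8.47 to 17.1 CPM in the prefrontal cortex (median 10.6), from 9.39 to 34.9 in the hippocampus (median 13.9) and from 21 to 42.4 in the hypothalamus (median 34.3). It was 3.08-fold above the prefrontal cortex (log2 fold change 1.62 ± 0.08 SE, adjusted p = 1.28e-28) and 2.28-fold above the hippocampus, higher in 28 of 28 and 27 of 28 animals. Sema4g, a transmembrane semaphorin, rose in steps over ranges of 22.1 to 34.3, 38.0 to 65.5 and 58.9 to 108 CPM, the last of which overlapped, with a log2 fold change of 1.63 ± 0.04 (SE) between hypothalamus and prefrontal cortex (adjusted p = 1.15e-42). Efnb3 also rose in steps, over 73.9 to 117, 151 to 198 and 201 to 253 CPM without overlap, and was 2.41-fold higher in the hypothalamus than in the prefrontal cortex (adjusted p = 3.03e-41).

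Sema3f and Plxna3, a ligand and its receptor, rose together. Sema3f ranged from 5.09 to 11.2 CPM in the prefrontal cortex, from 7.15 to 18.9 in the hippocampus and from 15.1 to 23.3 in the hypothalamus, and Plxna3 from 27.7 to 48.4, from 27.1 to 49.0 and from 60.1 to 88.6 CPM. Against the prefrontal cortex the log2 fold changes of the hypothalamus were 1.32 ± 0.07 and 1.02 ± 0.04 (SE), with adjusted p of 1.25e-26 and 1.01e-33. Nrp2, the coreceptor through which Sema3f acts, had 35.1 ± 5.5, 66.9 ± 6.8 and 108 ± 13 CPM from prefrontal cortex to hypothalamus (SD, n = 29, 29 and 28), a log2 fold change of 1.62 between the last and the first.

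Within the netrin system, the Unc5 receptors differed in direction. Unc5a was lower in the hypothalamus than in the prefrontal cortex (log2 fold change -0.79), while Unc5b, Unc5c and Unc5d were higher (0.57, 0.46 and 0.56). Dcc, the attractive netrin receptor and not a member here, was higher as well (1.11). Plexins other than Plxna2, Plxna4 and Plxnd1 were higher in the hypothalamus than in the prefrontal cortex, 6 of 9 with an adjusted p under 0.05. Of the 20 semaphorins 13 were higher and 6 lower by that test. Of all genes 81.3% passed it in this comparison, and their split by direction is not given here. A trend of these families therefore cannot be told apart from one of all genes.

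Of 31 pairs of ligand and receptor drawn from textbook knowledge, many of which share a gene, both partners passed the adjusted p of 0.05 in the same direction in 20 pairs and in opposite directions in 9 between hypothalamus and prefrontal cortex. Between hypothalamus and hippocampus there were 12 and 15 pairs, and between hippocampus and prefrontal cortex 10 and 9. Ntn1 with Unc5a and Efnb3 with Epha4 were opposite in the first of these (log2 fold changes of 1.62 and -0.79, and of 1.27 and -1.37). In the same order of comparisons, 81.3%, 76.4% and 72% of all genes passed the adjusted p. Pairs of other genes were not counted. Whether ligand and receptor go together more often than other genes therefore cannot be told from these counts.

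Of 22 coreceptors and further guidance cues, all were tested. At least 2-fold differences between hypothalamus and prefrontal cortex were called for 3 in each direction, where 8.56% of all genes were called higher and 7.01% lower: Nrp2, Dcc and Ntng1 were higher, and Ntng2, Flrt2 and Nell2 lower. Nell2, a secreted ligand of Robo3, had 638 ± 47 CPM in the prefrontal cortex, 612 ± 48 in the hippocampus and 250.2 ± 34.1 in the hypothalamus (SD, n = 29, 29 and 28). Of 43 intracellular effectors, 3 were called higher and 6 lower against the same shares of all genes. Chn1, a Rac-inactivating protein that acts below Epha4, was 460 ± 37, 337 ± 37 and 135 ± 20 CPM, and Ngef, an exchange factor bound by EphA receptors, 373 ± 30, 144 ± 16 and 137 ± 25 CPM in the same regions. Summed excitatory telencephalic markers had medians of 2196, 1566 and 89.8 CPM in the same regions, and their part in the regional differences was not tested.

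The study set out to compare brain gene expression between the ends of the range of network size. For the guidance genes, no member reached an adjusted p under 0.05 by edgeR in any of the comparisons, in females, males or both sexes of any region. Over all genes, 0.0113% in the prefrontal cortex, 0% in the hippocampus and 0.00552% in the hypothalamus passed in females, 0% in each region in males, and 0.0163%, 0% and 0% in both sexes together. The paper, which used DESeq2, reported differentially expressed genes in every region of females, with the largest number in the hippocampus. It reported few or none in males. Log2 fold changes below are those of small against large network size.

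At an unadjusted p under 0.05 there were 15 of 64 members (23.4%) in the prefrontal cortex of females, where 9.59% of all genes tested were at that level. Ntn5, Robo3 and Efna5 were lower and 12 higher in animals with small network size, against 4.63% lower and 4.96% higher among all genes. In the hippocampus of females it was 13 of 65 members (20%), 8 higher and 5 lower, where 12.2% of all genes were at that level, 6.76% higher and 5.46% lower. In the hypothalamus of females it was 6 of 65 (9.23%) where 7.39% of all genes were. In males 1 of 64, 6 of 65 and 1 of 65 members reached it in prefrontal cortex, hippocampus and hypothalamus, where 2.52%, 3.88% and 2.9% of all genes did. With both sexes the counts were 12 of 64, 11 of 65 and 3 of 65, where 8.16%, 8.94% and 3.39% of all genes did.

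The prefrontal cortex of animal 8, a female with small network size, was the highest of its region for 25 of the 65 members, and it also had the highest summed markers of excitatory neurons (2678 CPM) and of meninges and mural cells (141 CPM). Without it, as without animal 26 (a female with large), 11 members had an unadjusted p under 0.05 there. The share of all genes at that level in those fits is not given here. Summed astrocyte markers were also higher with small network size in these females, with a median of 964 CPM (880 to 1022) against 874 (781 to 963), as were those of microglia with 278 (226 to 309) against 236 (217 to 259). Those of oligodendrocyte precursors were higher as well, with 110 (102 to 153) against 98.6 (91.2 to 115). Medians of some other lists were lower, among them oligodendrocytes (2793 against 3044 CPM) and inhibitory neurons (667 against 698 CPM). Among 90 such comparisons of marker sums the smallest p of the exact permutation test was 0.236 after adjustment. The part of these cells in the differences was not tested.

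The 3 members with the smallest p in each comparison were set out in full. They were picked for their p among all members, so the exact tests that follow describe them and add no evidence. With 7 animals against 7 the exact permutation test cannot give a p below 0.000583.

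In the prefrontal cortex of females, Ntn5 was between 5.52 and 9.55 CPM with small (median 7.83) and between 9.29 and 14.6 with large network size (median 11.9). Of the 7 animals with small network size, 6 lay below all animals with large. The log2 fold change was -0.68 ± 0.14 (SE, unadjusted p = 0.000166, adjusted p = 0.154 by edgeR), and the exact permutation test gave p = 0.00175. In males the ranges overlapped, with 7.53 to 24.1 CPM with small (median 9.78) and 7.03 to 12.4 with large network size (median 9.79). The 24.1 CPM was that of animal 7, and the log2 fold change was 0.28 ± 0.22 (SE). The difference between the sexes was -0.96 ± 0.28 (SE) and did not pass adjustment (adjusted p = 0.598 by edgeR). By the DESeq2 Wald test Ntn5 was the only member called in these females, with an adjusted p of 0.00262, where that test called 0.358% of all genes. Sec1, its overlapping neighbour, differed in the same direction there, by -0.77 ± 0.24 (SE, adjusted p = 0.443), and strand was not given in the sources, so the share of reads from each gene cannot be told apart.

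Robo3 was between 31.4 and 63.5 CPM with small and between 56.3 and 78.5 with large network size in these females, with 6 of 7 animals below all of those with large. The log2 fold change was -0.51 ± 0.13 (SE, adjusted p = 0.360; exact permutation p = 0.00466). In males both groups spread widely, 38.2 to 79.8 and 43.8 to 95.4 CPM. Epha7 did not overlap between the groups of females, with 103 to 113 CPM with small and 85.3 to 102 with large network size. Its log2 fold change was small, 0.16 ± 0.05 (SE, adjusted p = 0.432), and the exact permutation p of 0.000583 is the smallest this design can give. In males the log2 fold change of Epha7 was -0.05 ± 0.07 (SE).

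**Figure D4:**
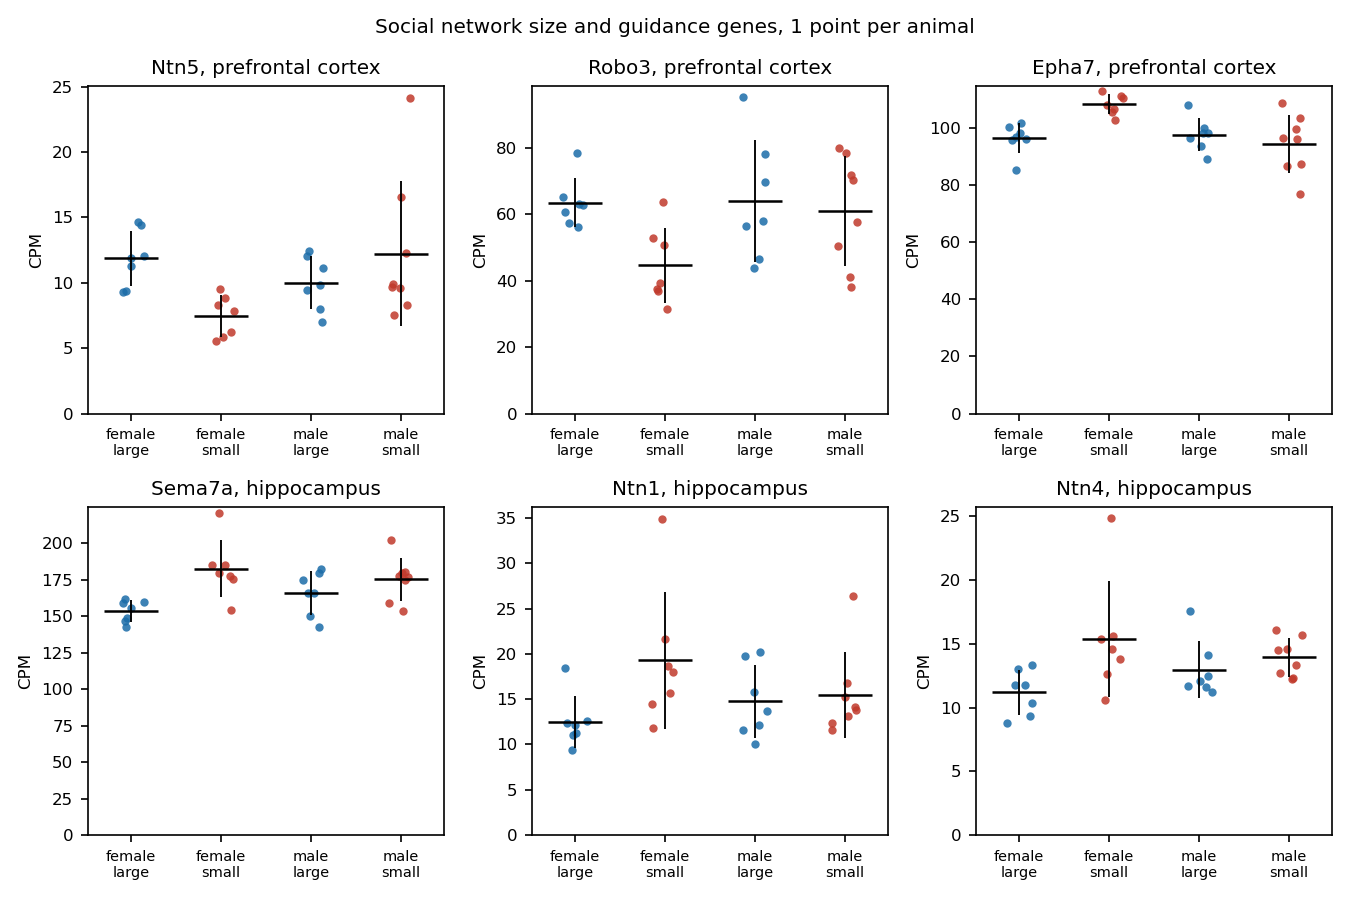
Levels in CPM by sex and social network size, 1 point per animal, for the 3 guidance genes with the smallest p in females in the prefrontal cortex (top) and the hippocampus (bottom); lines give the mean and SD, and axes start at 0. In the prefrontal cortex, 6 of 7 females of small network size lie below every female of large for Ntn5 and for Robo3, and animal 23 is the highest point of females with small network size for Ntn1 and Ntn4.

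In the hippocampus of females, Sema7a was between 154 and 220 CPM with small and between 143 and 162 with large network size, with 6 of 7 animals above all of those with large. The log2 fold change was 0.25 ± 0.06 (SE, adjusted p = 0.249; exact permutation p = 0.00291). Ntn1 was between 11.8 and 34.9 CPM with small and between 9.39 and 18.4 with large network size (log2 fold change 0.63 ± 0.20 SE, adjusted p = 0.270). Ntn4, a netrin of basement membranes, was between 10.6 and 24.9 and between 8.76 and 13.3 CPM (0.45 ± 0.15 SE, adjusted p = 0.288). The highest values of all 3 were those of animal 23, whose hippocampus also had the highest summed astrocyte markers (1507 CPM) and the lowest summed prefrontal cortex markers (413 CPM) of its region. Without it the log2 fold changes were 0.20 for Sema7a, 0.42 for Ntn1 and 0.30 for Ntn4, with adjusted p of 0.359, 0.472 and 0.492. Astrocyte markers in females had medians of 1267 CPM with small (1120 to 1507) and 1138 CPM with large network size (1065 to 1208), and their part was not tested.

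In the hypothalamus of females the members with the smallest p were Sema3a, Plxna2 and Sema7a. Sema3a was between 6.61 and 11.8 CPM with small and between 9.49 and 13.4 with large network size (log2 fold change -0.35 ± 0.12 SE, adjusted p = 0.568). Plxna2, one of its receptors, was between 101 and 121 and between 117 and 138 CPM (-0.13 ± 0.05 SE, adjusted p = 0.609). Sema7a was between 52.9 and 83.5 and between 48.1 and 67.5 CPM (0.27 ± 0.11 SE, adjusted p = 0.634). Summed microglia markers in these females had medians of 238 CPM with small (227 to 264) and 217 with large network size (202 to 242; exact permutation p = 0.00524), and inhibitory neuron markers of 1362 and 1434 CPM (exact permutation p = 0.0437). Neither passed adjustment over the 90 comparisons, and their part was not tested. In males neither Sema3a (log2 fold change 0.02) nor Plxna2 (0.06) had an unadjusted p under 0.05.

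In males the members with the smallest p were Ephb4, Sema6d and Robo1 in the prefrontal cortex, Sema3f, Sema3d and Epha1 in the hippocampus and Sema4a, Epha6 and Sema3e in the hypothalamus. In the prefrontal cortex, Ephb4, an ephrin-B receptor of veins, was between 5.77 and 11.3 CPM with small and between 6.84 and 8.48 with large network size (log2 fold change 0.26 ± 0.11 SE). In the hippocampus Sema3f was between 11.9 and 18.8 and between 8.11 and 14.7 CPM (0.40 ± 0.14 SE), Sema3d between 10.8 and 14.7 and between 10.2 and 13 (0.21 ± 0.07 SE) and Epha1 between 0.865 and 1.84 and between 0.805 and 1.5 (0.44 ± 0.17 SE). In the male hippocampus, astrocyte markers had medians of 1164 CPM with small (1076 to 1242) and 1286 with large network size (1161 to 1335; exact permutation p = 0.00311), and inhibitory neuron markers of 678 and 618 CPM (exact permutation p = 0.0361). Their part was not tested. Epha1 is at low counts and shares 236 exon bases with Zyx on the opposite strand. In the hypothalamus Sema4a was between 76.5 and 93.2 CPM with small and between 80.5 and 105 with large network size (-0.18 ± 0.07 SE). Adjusted p was at least 0.999 for each of these members of males.

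With both sexes in one fit, the members with the smallest p were Slit1 (log2 fold change 0.19 ± 0.07 SE), Sema6d (0.12 ± 0.04 SE) and Plxnb1 (0.21 ± 0.08 SE) in the prefrontal cortex, each with an adjusted p of 0.590. In the hippocampus they were Sema7a (0.17 ± 0.05 SE, adjusted p = 0.449), Unc5b (0.24 ± 0.08 SE) and Epha1 (0.37 ± 0.12 SE), the last of these with an adjusted p of 0.508. In the hypothalamus they were Sema4a (-0.11 ± 0.05 SE), Plxnb3 (0.16 ± 0.08 SE) and Ntn4 (0.15 ± 0.07 SE), and again the adjusted p was at least 0.999.

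**Figure D5:**
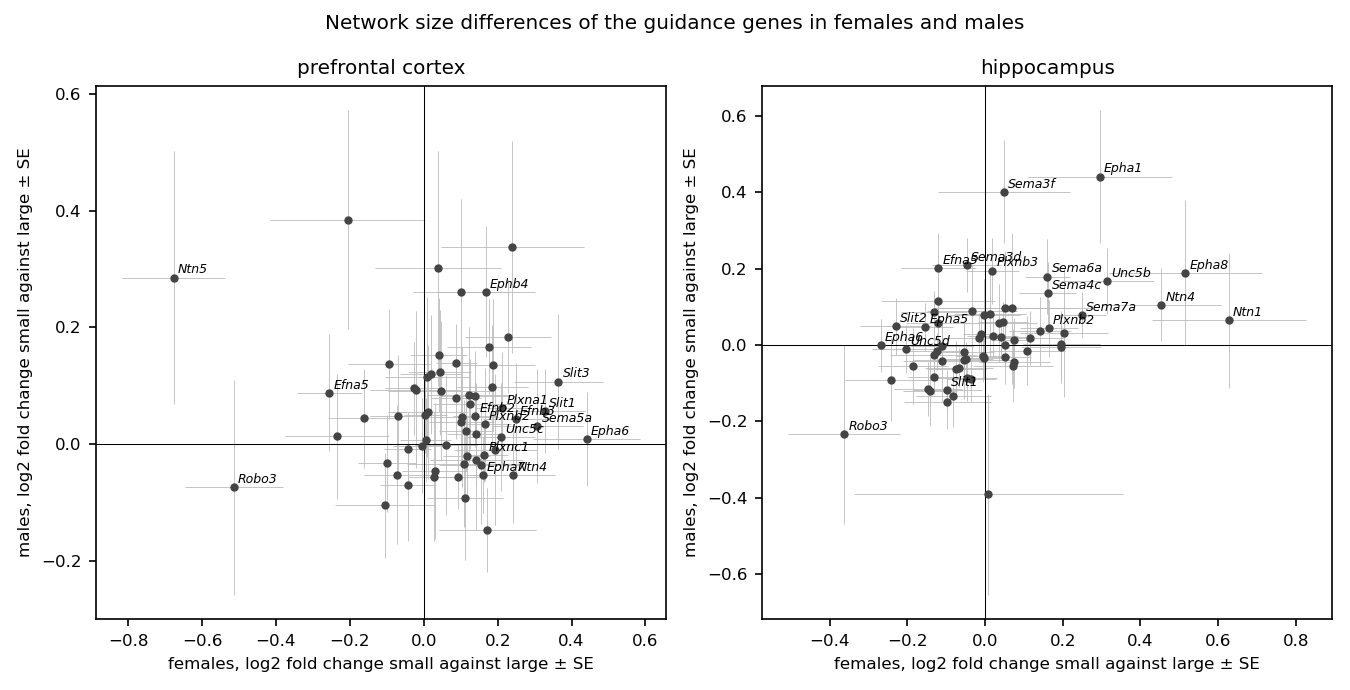
Log2 fold changes of small against large social network size for each guidance gene tested, females on the x axis and males on the y axis, with bars of 1 standard error, in the prefrontal cortex (left) and the hippocampus (right); names are given for members with an unadjusted p under 0.05 in either sex. Ntn5 lies at -0.68 in females and 0.28 in males in the prefrontal cortex. Its medians in these males were 9.78 CPM with small and 9.79 with large network size.

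Sex was also compared. No member had an adjusted p under 0.05 between females and males in any region, where 0.0921%, 0.102% and 0.117% of all genes did in the prefrontal cortex, hippocampus and hypothalamus. At an unadjusted p under 0.05 there were 6 of 64, 4 of 65 and 6 of 65 members, where 4.96%, 6.02% and 6.73% of all genes were. The smallest adjusted p among members was that of Plxnb1, a receptor of Sema4d, in the hypothalamus (log2 fold change of females against males -0.18 ± 0.05 SE, adjusted p = 0.335). For the difference between the sexes in the effect of network size, 0 members and 0% of all genes had an adjusted p under 0.05 in each region, and 8 of 64, 5 of 65 and 2 of 65 members had an unadjusted p under 0.05, where 4.17%, 7.37% and 6.14% of all genes had. Of the 22 coreceptors and the 43 effectors, 0 had an adjusted p under 0.05 for network size in any sex or region. At an unadjusted p under 0.05 in females, 6 coreceptors were higher with small network size and 0 lower in the prefrontal cortex, 1 and 0 in the hippocampus and 1 and 1 in the hypothalamus. For the effectors the counts were 4 and 0, 5 and 1, and 2 and 2. Of all genes, 4.96% were higher and 4.63% lower in the prefrontal cortex, 6.76% and 5.46% in the hippocampus and 4.19% and 3.2% in the hypothalamus.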

How the data were processed

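According to the labels and the methods of the study, total RNA from brain punches was sequenced as paired-end reads, mapped to mm10 (GRCm38) by STAR, and assigned to genes by HTSeq. The authors deposited these raw counts without normalization; annotation release and strand setting are not given in the sources used here. Totals lay between 33711824 and 81865801 counts per library. Symbols, positions and exon lengths came from GENCODE vM21, which held 34490 of the 35275 genes. Members and gene lists were chosen with earlier results of these data known.

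Regions were compared by edgeR 4.0.16 (R 4.3.3) with TMM scaling, filterByExpr (minimum count 10, minimum total 15, proportion 0.7), the quasi-likelihood test and animal as a block. Same-numbered libraries come from 1 animal: their deviations from group means correlated at 0.251 or more for every animal in each pair of regions, and the same animal was the best match for 25 to 28 of 28 or 29 animals. Standard errors are the absolute log2 fold change divided by the root of F. Network size was compared per sex and region, and in both sexes with sex as a covariate; sex and its interaction with network size used all groups of a region. Adjusted p-values are Benjamini-Hochberg values over all genes tested. Single members were compared by two-sided exact permutation tests of mean CPM (scipy 1.17.1). Alternatives were other size factors, all genes with at least 1 count, the DESeq2 1.42.0 Wald test, fits without the block, by sex, with 4 groups together and without each animal. Scripts were tested on simulated data. Named in full are up to 5 members per direction with the largest folds and at least 1 CPM, the highest member of each family per length, and the 3 members with the smallest p for network size; further members, chosen after their values were seen, complete families, pairs and counts. Figures used matplotlib 3.10.9 (Python 3.11.15). The sources report 1 hypothalamus sample lost at extraction.

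The p-values for network size and sex set a difference against the spread between animals. Those between regions, with animal as a block, rest on how far the regional differences varied from animal to animal. Of the members, 14 share exon bases with a gene on the opposite strand and 2 with one on the same strand, and their counts are less certain.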

Additional observations from a re-analysis of the deposited data

Results flagged for a closer look

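In 92 groups of 7 or 8 animals (23 combinations of a named member and a region), 12 single values stood far from the others of their group by Dixon's test, which flags about 1 in 20 groups by chance. In the hippocampus of females with small network size, animal 23 was highest for Ntn1 with 34.9 CPM (others 11.8 to 21.6), for Ntn4 with 24.9 CPM (10.6 to 15.6) and for Unc5b with 66.8 CPM (38.1 to 47.5). Ntn1 was also apart in animal 9 among females with large network size (18.4 CPM, others 9.39 to 12.6) and in animal 7 among males with small (26.4 CPM, others 11.6 to 16.8). The hippocampus of animal 7 also had the highest hypothalamic markers of its region, 84.8 CPM against 41.1 at most in the others.

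In the hypothalamus, Ntn4 was apart in animal 19 (females with large network size, 26.3 CPM, others 19 to 21.8), whose library had the lowest RNA quality named in the study, and in animal 10 (males with small, 35.5 CPM, others 18.7 to 25.7), whose hypothalamic markers were the lowest of the region (140 CPM). Sema7a was apart in animal 6 (males with small, 112 CPM, others 55.3 to 74.6), whose thalamic markers were the highest. In the prefrontal cortex the values were 85.3 CPM for Epha7 in animal 26 (females with large, others 95.9 to 102), 163 CPM for Plxnb1 in animal 8 (females with small, others 80.2 to 110), 56.9 CPM for Robo1 in animal 18 (males with small, others 38.6 to 45.8) and 78.5 CPM for Robo3 in animal 1 (females with large, others 56.3 to 65.1). The part of these markers in the values was not tested.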

How the results depend on the processing

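The counts of members called between regions were within 1.5 times under each alternative run, among them the fit without the replicate block, which gave the counts of the paired fit: 2 higher and 2 lower in the hippocampus than in the prefrontal cortex, 5 and 11 for the hypothalamus against the prefrontal cortex, and 1 and 12 against the hippocampus. One of these alternatives, without the 6 libraries apart on region markers, was chosen after seeing the data. For network size, 1 member (Ntn5) had an adjusted p under 0.05 in the prefrontal cortex of females by the DESeq2 Wald test, which called 74 genes there where edgeR called 2, and 0 by every edgeR fit. At an unadjusted p under 0.05, the 1 member of the prefrontal cortex of males became 2 with all genes of at least 1 count, 3 by DESeq2 and 2 with 4 groups in one fit, and the 6 of the hypothalamus of females became 3 with 4 groups in one fit. The cause was not tested. For these counts, and for those below with 1 animal left out, the share of all genes at that level is not given here. A shift of the members therefore cannot be told apart from a shift of all genes. With 1 animal left out at a time, these counts ran from 11 to 19, 9 to 19 and 3 to 8 in females (prefrontal cortex, hippocampus, hypothalamus), from 0 to 7, 3 to 9 and 1 to 5 in males and from 8 to 14, 9 to 18 and 0 to 4 in both sexes, with 0 members at an adjusted p under 0.05. The extremes beyond 1.5 times came without animal 2 (3, hypothalamus of females), animals 10 and 15 (0 and 7, prefrontal cortex of males), animal 10 (5, hypothalamus of males), animal 24 (18, hippocampus of both sexes) and animal 16 (0, hypothalamus of both sexes), and 6 animals each gave 3 in the hippocampus of males. Of the single members named, 754 alternative values kept their direction and side of the threshold, and 1, Ntn5 by DESeq2, passed it.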
